A study of Homo sapiens with 12 samples.

Results

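The genes described are 8 members of the CNC-MAF network of transcription factors: NFE2L1, NFE2L2, NFE2L3, KEAP1, BACH1, MAFF, MAFG and MAFK. They were taken by gene name, as a set proposed with earlier results of these data known, and are 8 of the 58676 genes in the deposited table. The study sequenced RNA of A549 cells, a long-established line from a human lung carcinoma, in 12 libraries. A control line (Control1 in the labels) and 2 lines with a knockout of NFE2L1 (KO1 and KO2) had each been given vehicle (DMSO) or bortezomib at 200 nM for 4 h. Each of the 6 groups had 2 libraries. Bortezomib is a proteasome inhibitor. The labels do not say how the knockouts were made, which part of NFE2L1 was altered, whether a line is 1 clone, or whether the 2 libraries of a group came from separate cultures, so p-values measure only the spread between these libraries, which may be technical.

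The CNC factors are basic leucine zipper proteins that bind antioxidant response elements in DNA as dimers with a small MAF protein. NFE2L1 (also called NRF1) is held in the endoplasmic reticulum and, when proteasomes are inhibited, is processed and activates proteasome subunit genes. NFE2L2 (NRF2) activates antioxidant and NADPH-producing genes, is marked for destruction by KEAP1, and competes with the repressor BACH1. The small MAF proteins MAFF, MAFG and MAFK lack an activation domain and depend on their partners to activate genes. A549 cells are known for a KEAP1 mutation and high NRF2 activity. Messenger RNA was measured here, so protein amount, processing and location of these factors were not.

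Promoter sequence is shown for NFE2L1, the knocked-out gene, and for MAFF and MAFG, whose bortezomib libraries did not overlap their vehicle libraries. The sequences are from RefSeq (GRCh38.p14) and run 5′ to 3′ on the gene's strand, ending before the RefSeq start. For NFE2L1 and MAFF they end before an exon of a protein-coding transcript in GENCODE 29. The MAFF window lies inside the deposited MAFF gene, which starts at chr22:38200767. Capitals mark a match to the antioxidant response element core TGACNNNGC on either strand.
NFE2L1, chr17:48048109-48048328, plus strand: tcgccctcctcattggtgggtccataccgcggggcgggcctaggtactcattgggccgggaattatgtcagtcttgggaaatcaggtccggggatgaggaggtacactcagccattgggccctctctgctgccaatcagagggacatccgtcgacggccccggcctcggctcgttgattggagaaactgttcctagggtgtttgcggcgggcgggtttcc
MAFF, chr22:38201744-38201881, plus strand: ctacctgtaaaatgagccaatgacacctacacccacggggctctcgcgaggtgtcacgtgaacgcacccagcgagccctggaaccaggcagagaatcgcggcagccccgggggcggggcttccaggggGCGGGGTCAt
MAFG, chr17:81927736-81927985, minus strand: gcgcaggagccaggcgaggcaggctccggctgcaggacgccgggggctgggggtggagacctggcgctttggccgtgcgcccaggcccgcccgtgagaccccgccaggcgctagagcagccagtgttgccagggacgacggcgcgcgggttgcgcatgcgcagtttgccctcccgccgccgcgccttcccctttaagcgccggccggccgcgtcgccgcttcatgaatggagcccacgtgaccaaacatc
Of the 8 members, 7 had a promoter in the RefSeq table. The 250 bases before the RefSeq start were searched on both strands for TGACNNNGC, the heat shock core GAANNTTC, the ATF4-type element TGATGNAA and the cyclic AMP response element TGACGTCA. The search used 1 RefSeq start per gene, and promoters at other starts were not searched. That start lies 128566 bases from the start of the deposited gene for NFE2L2, 111133 bases for BACH1 and 1227 bases for MAFF. Within these windows MAFF alone of the 7 had any match. Its antioxidant core lies on the opposite strand at -122 to -114 from the RefSeq start. A cyclic AMP element lies at -54 to -47, inside an exon of an annotated protein-coding transcript, and is shown in capitals within a 30-base stretch.
MAFF, chr22:38201929-38201958, plus strand: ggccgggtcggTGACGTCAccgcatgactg
The cyclic AMP letters were searched for after the MAFF sequence had been seen. Among 35116 promoters of the same length, 10.9% held the antioxidant core, 5.78% the heat shock core, 3.14% the ATF4-type element and 1.65% the cyclic AMP element. How many promoters held any of these elements was not counted, so MAFF is not set apart by having a match. A match describes letters only, and binding was not measured.

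The deposited unit was FPKM, in which a fragment count is divided by gene length and by the reads assigned to genes. Depth was 13211608 to 23819258 assigned reads per library. The filter kept genes whose FPKM averaged 1 or more across libraries, and all 8 members passed it, with between 69 reads (MAFF) and 20773 reads (NFE2L1) in a library. In the titles 6 libraries carry the suffix R2, 1 in each group, while the other library carries R1 in the KO groups and no suffix in the control groups. Both kinds of library without R2 are called first libraries below. The share of reads from mitochondrial genes was 5.4% to 6.8% in first libraries and 12.3% to 19.3% in R2 libraries. The split runs through every group, so each comparison had 2 fits with limma on log2(FPKM + 1), without and with the suffix as a block. A gene was called at a Benjamini-Hochberg adjusted p under 0.05 over 12194 tested genes. The epithelial and A549 markers KRT8, KRT18, ALDH1A1 and AKR1B10 had a lowest value of 111.5 FPKM or more, CDKN2A, which is deleted in A549, was listed at 0 in all 12 libraries, and PTPRC, PECAM1 and COL1A2 of leukocytes, endothelium and fibroblasts stayed at 0.408 FPKM or less.

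**Figure D1:**
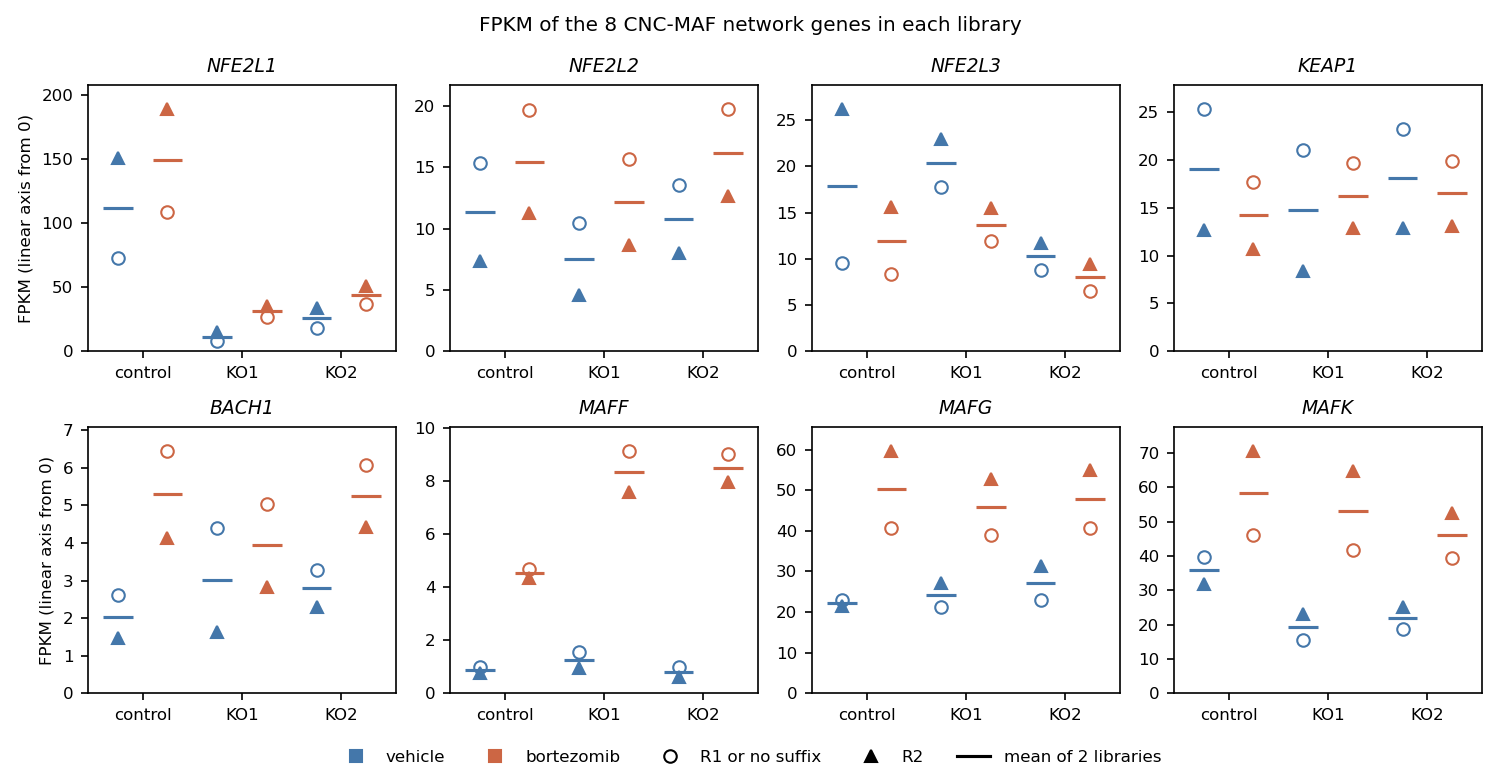
FPKM (linear axes from 0, 1 scale per gene) of the 8 genes in each of the 12 libraries, by line and treatment; circles are R1 or unnumbered libraries, triangles R2, and bars the mean of the 2 libraries of a group. MAFF and MAFG bortezomib libraries all lie above the vehicle libraries, while NFE2L1 separates the control line from both KO lines.

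NFE2L1 lies at chr17:48048329-48061487 on the plus strand (GRCh38) and is the gene targeted in the KO lines. In the control line its level was 72.7 and 151 FPKM in vehicle and 109 and 189 FPKM in bortezomib, the first library before R2 here and in all pairs of values below. In KO1 it was 8.45 and 14.8 FPKM in vehicle and 27.0 and 35.8 FPKM in bortezomib. In KO2 it was 18.6 and 33.6 FPKM in vehicle and 36.7 and 50.8 FPKM in bortezomib. All 8 KO libraries lay below all 4 control libraries, and NFE2L1 transcript remained in every KO library. How many tested genes separate the KO and control lines over both treatments was not counted. Reads were counted over the whole gene, so these levels do not say whether the remaining transcript encodes an intact protein.

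In vehicle, the KO lines held 0.0982 to 0.256 of the control level of NFE2L1 when libraries of like suffix were set side by side, unnumbered control libraries beside R1. KO to control differences with the block, here and below, are tied mainly through the R2 libraries, 1 in each group. With the block, NFE2L1 differed from the control line by -3.27 (SE 0.19) in KO1 and by -2.18 (SE 0.19) in KO2 on the log2(FPKM + 1) scale, at limma adjusted p of 6.20e-05 and 0.000448. The unblocked values were -3.11 (SE 0.53, limma adjusted p = 0.0666) and -2.02 (SE 0.53, limma adjusted p = 0.371), so neither was called. The KO2 call with the block was lost without the R2 vehicle control library (limma adjusted p = 0.0556). KO1 was lower than KO2 in vehicle by -1.09 (SE 0.16, limma adjusted p = 0.00941 with the block), and the same difference was not called without it (limma adjusted p = 1). That call was also lost without either KO2 vehicle library (limma adjusted p of 0.0675 and 0.166).

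NFE2L1 transcript was higher after bortezomib in 6 of 6 pairs of libraries of the same line and suffix, by 1.25 to 3.20 times. Averaged over the 3 lines the difference was 0.87 (SE 0.09, limma adjusted p = 7.33e-05) with the block, and 0.098 was the limma adjusted p without it. By line and with the block, NFE2L1 rose by 1.39 (SE 0.16, limma adjusted p = 0.000600) in KO1 and by 0.76 (SE 0.16, limma adjusted p = 0.00906) in KO2. The KO2 call was lost without its first bortezomib or first vehicle library (limma adjusted p of 0.0707 and 0.120). The control line difference was 0.45 (SE 0.16, limma adjusted p = 0.0578) and missed the threshold. None of the 3 was called without the block, where the limma adjusted p-values were 0.406 in KO1, 0.784 in KO2 and 0.853 in the control line. In bortezomib the KO lines still held 0.189 to 0.337 of the control level, a difference of -2.10 (SE 0.17, limma adjusted p = 0.000478) with the block and -1.94 (SE 0.46, limma adjusted p = 0.209) without.

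NFE2L2, which encodes NRF2, lies at chr2:177227595-177392697 on the minus strand. Vehicle libraries held 15.3 and 7.36 FPKM in the control line, 10.4 and 4.56 FPKM in KO1, and 13.6 and 8.01 FPKM in KO2. Bortezomib libraries held 19.7 and 11.2 FPKM in the control line, 15.7 and 8.69 FPKM in KO1, and 19.8 and 12.6 FPKM in KO2. The bortezomib library was the higher one in 6 of 6 pairs, by 1.28 to 1.91 times, but the ranges of the 6 bortezomib and 6 vehicle libraries overlapped because the R2 libraries were lower in every group. With the block NFE2L2 rose by 0.56 (SE 0.09, limma adjusted p = 0.000565) over the 3 lines, against a limma adjusted p of 0.278 without it. It also rose with the block in control cells (0.45, SE 0.15, limma adjusted p = 0.0457), in KO1 (0.67, SE 0.15, limma adjusted p = 0.0103) and in KO2 (0.55, SE 0.15, limma adjusted p = 0.0242). Without the block the limma adjusted p-values of the 3 lines were 0.854, 0.813 and 0.896. The blocked calls by line rested on few libraries: of 12 libraries left out singly, 10 ended the control call (limma adjusted p up to 0.302), 3 the KO1 call (up to 0.0807) and 4 the KO2 call (up to 0.179). The call over the 3 lines held in all 12. NFE2L2 was not called between KO and control lines with the unnumbered libraries on a level of their own. Treating them as R1 called it lower in KO1 than in the control line in vehicle, by -0.55 (SE 0.14, limma adjusted p = 0.0419).

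NFE2L3 is a CNC factor that, like NFE2L1, is anchored in the endoplasmic reticulum, and it was the only member called lower with bortezomib. It lies at chr7:26152240-26187125 on the plus strand. In vehicle it stood at 9.59 and 26.2 FPKM in the control line, 17.8 and 22.9 FPKM in KO1, and 8.82 and 11.8 FPKM in KO2. In bortezomib it stood at 8.38 and 15.6 FPKM in the control line, 11.9 and 15.5 FPKM in KO1, and 6.57 and 9.49 FPKM in KO2. The bortezomib library was the lower one in 6 of 6 pairs, at 0.593 to 0.874 of vehicle, and the ranges of the treatments overlapped. With the block NFE2L3 fell by 0.44 (SE 0.09, limma adjusted p = 0.00265) over the 3 lines and by 0.54 (SE 0.15, limma adjusted p = 0.0291) in KO1. The KO1 call was lost with 6 of 12 libraries left out singly (limma adjusted p up to 0.165), and with the unnumbered control libraries treated as R1 (0.109). The call over the 3 lines was lost in none of these. Neither was called without the block, at limma adjusted p-values of 0.357 and 0.851, and in the control line and KO2 the limma adjusted p-values with it were 0.0524 and 0.144.

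For NFE2L3 a difference between the KO lines in vehicle was called with the block only. KO1 was at 1.86 of the control level in the first libraries and 0.874 in the R2 libraries, and was not called against the control line. With the block, KO1 exceeded KO2 in vehicle by 0.92 (SE 0.15, limma adjusted p = 0.0163). Both KO1 libraries lay above both KO2 libraries, but how many tested genes did so was not counted, so NFE2L3 is not set apart by it. KO2 was lower than the control line by -0.95 (SE 0.18, limma adjusted p = 0.0182) with the block. Its ratio to the control line in vehicle was 0.919 in the first libraries and 0.449 in the R2 libraries. The control values differed 2.73 times between the 2 vehicle libraries, the widest gap between libraries of 1 group for this gene. The KO1 to KO2 call was lost without any 1 of the 4 KO vehicle libraries (limma adjusted p up to 0.174), and with unnumbered libraries treated as R1 (limma adjusted p = 0.0747). The KO2 to control call was lost without the R2 vehicle control library (-0.55, limma adjusted p = 0.555) or either KO2 vehicle library (up to 0.209), and with that same alternative block (0.198). Without the block the KO1 to KO2 difference had a limma adjusted p of 1. The KO2 to control difference was then -0.60 (SE 0.48) and was not called.

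KEAP1, the adaptor that delivers NRF2 to a CUL3 ubiquitin ligase, lies at chr19:10486120-10503741 on the minus strand. The vehicle libraries had 25.3 and 12.7 FPKM in the control line, 21.0 and 8.44 FPKM in KO1, and 23.2 and 12.9 FPKM in KO2. The bortezomib libraries had 17.6 and 10.7 FPKM in the control line, 19.6 and 12.9 FPKM in KO1, and 19.9 and 13.1 FPKM in KO2. The bortezomib library was higher in 2 of 6 pairs, with ratios of 0.697 to 1.53. KEAP1 was called in none of the 9 comparisons with limma, with or without the block. Its R2 libraries were lower than its first libraries in 6 of 6 groups, at 0.401 to 0.660 of their level, below its lowest ratio between treatments.

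The NFE2L2 to KEAP1 ratio of FPKM separated the treatments. It was 0.496 to 0.621 in the 6 vehicle libraries and 0.674 to 1.12 in the 6 bortezomib libraries, with no overlap. How often ratios between other genes separate the treatments was not counted, so this ratio is not set apart by the lack of overlap. Both genes were lower in R2 libraries of every group. The ratio was computed after the members' values were known and was given no test.

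BACH1, the repressor that occupies antioxidant response elements with small MAF proteins, lies at chr21:29194071-29630751 on the plus strand. Without drug, BACH1 was at 2.61 and 1.48 FPKM in the control line, 4.41 and 1.62 FPKM in KO1, and 3.29 and 2.30 FPKM in KO2. With drug it was at 6.45 and 4.14 FPKM in the control line, 5.03 and 2.84 FPKM in KO1, and 6.06 and 4.43 FPKM in KO2. The bortezomib library was higher in 6 of 6 pairs, by 1.14 times at the least, in KO1, and by 2.81 times at the most, in the control line. With the block BACH1 rose by 0.71 (SE 0.10, limma adjusted p = 0.000415) over the 3 lines, by 1.05 (SE 0.18, limma adjusted p = 0.00271) in the control line and by 0.72 (SE 0.18, limma adjusted p = 0.0182) in KO2. In KO1 its limma adjusted p was 0.166. The KO2 call was lost without the R2 bortezomib or the first vehicle library of KO2 (limma adjusted p of 0.139 and 0.168). Without the block BACH1 was not called, at limma adjusted p-values of 0.0854 over the 3 lines, 0.330 in the control line and 0.676 in KO2.

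The NFE2L2 to BACH1 ratio, activator over repressor, fell to 0.520 and 0.544 of its vehicle value in the 2 control pairs and to 0.791 and 0.818 in the 2 KO2 pairs. In the KO1 pairs it was 1.32 and 1.09 times its vehicle value. Bortezomib libraries spanned ratios of 2.71 to 3.26 and vehicle libraries 2.37 to 5.87, so the bortezomib values lay inside the vehicle range. These values are a description, with no test of the difference between lines.

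MAFF, a small MAF protein known for rapid induction by stress, had the largest change of the 8 with bortezomib. It lies at chr22:38200767-38216511 on the plus strand. In vehicle its level was 0.987 and 0.781 FPKM in the control line, 1.57 and 0.950 FPKM in KO1, and 1.01 and 0.638 FPKM in KO2. In bortezomib it was 4.70 and 4.37 FPKM in the control line, 9.15 and 7.59 FPKM in KO1, and 9.05 and 7.96 FPKM in KO2. All 6 bortezomib libraries lay above all 6 vehicle libraries, and the 4 bortezomib libraries of the KO lines lay above the 2 of the control line. The paired FPKM ratios were 4.76 to 12.5, with a median of 6.92, and the largest 2 were those of KO2.

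MAFF rose over the 3 lines by 2.00 (SE 0.14, limma adjusted p = 0.000107) without the block and with a limma adjusted p of 4.14e-07 with it. It was the only member called in each line without the block. The differences were 1.56 (SE 0.25, limma adjusted p = 0.0385) for control cells, 2.06 (SE 0.25, limma adjusted p = 0.0124) for KO1 and 2.39 (SE 0.25, limma adjusted p = 0.00455) for KO2. With the block the 3 limma adjusted p-values were 0.000141, 3.97e-05 and 2.43e-05. The log2(FPKM + 1) scale understates a change from a level near 1 FPKM, as the FPKM ratios show. Without the block, the control line call was lost with any of the 12 libraries left out (limma adjusted p up to 0.322), the KO1 call without any of the 4 KO1 libraries (up to 0.153) and the KO2 call without 3 of the 4 KO2 libraries (up to 0.0856). No left-out library ended a MAFF call for bortezomib against vehicle with the block, by line or over the 3 lines, or over the 3 lines without it.

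In bortezomib, MAFF was 1.74 to 1.95 times as high in the KO lines as in the control line. With the block the difference was 0.69 (SE 0.14, limma adjusted p = 0.0211), and without it 0.77 (SE 0.22, limma adjusted p = 0.322). The blocked call was lost with 6 of 12 libraries left out singly, all 4 control libraries among them (limma adjusted p up to 0.182). In vehicle the KO to control ratios were 0.817 to 1.59, on both sides of 1. The interaction, which tests whether the bortezomib change differs between KO and control lines, was 0.67 for MAFF (SE 0.16 with the block, limma adjusted p = 0.185; SE 0.30 without, limma adjusted p = 1), so a larger response in the KO lines was not shown.

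MAFG lies at chr17:81918270-81927714 on the minus strand. In vehicle its level was 23.0 and 21.5 FPKM in the control line, 21.3 and 27.2 FPKM in KO1, and 23.1 and 31.3 FPKM in KO2. In bortezomib it was 40.7 and 59.7 FPKM in the control line, 38.9 and 52.8 FPKM in KO1, and 40.7 and 55.0 FPKM in KO2. All 6 bortezomib libraries lay above all 6 vehicle libraries. In vehicle both KO2 libraries lay above both control libraries, the first by a small margin, and that difference was not called in either fit. The paired ratios were 1.75 to 2.78 with a median of 1.80. MAFG rose over the 3 lines by 0.93, with an SE of 0.22 and a limma adjusted p of 0.0275 without the block and an SE of 0.10 and a limma adjusted p of 6.29e-05 with it. With the block it rose in control cells by 1.11 (SE 0.17, limma adjusted p = 0.00157), in KO1 by 0.89 (SE 0.17, limma adjusted p = 0.00535) and in KO2 by 0.79 (SE 0.17, limma adjusted p = 0.00913). Without it the limma adjusted p-values by line were 0.265, 0.513 and 0.582. Leaving out single libraries ended the unblocked call over the 3 lines in 9 of 12 cases (limma adjusted p up to 0.0838), the blocked KO1 call in 1, without its R2 bortezomib library (0.0529), and the blocked KO2 call in 3 (up to 0.0860).

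MAFK, the other abundant small MAF gene, lies at chr7:1530714-1543043 on the plus strand. In vehicle its level was 39.6 and 31.9 FPKM in the control line, 15.5 and 23.2 FPKM in KO1, and 18.7 and 25.1 FPKM in KO2. In bortezomib it was 46.1 and 70.6 FPKM in the control line, 41.7 and 64.6 FPKM in KO1, and 39.5 and 52.6 FPKM in KO2. In vehicle all 4 KO libraries lay below both control libraries, and in bortezomib the ranges overlapped. The first control library in vehicle, at 39.6 FPKM, lay just above the lowest bortezomib library.

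MAFK rose with bortezomib over the 3 lines by 1.04, with an SE of 0.24 and a limma adjusted p of 0.0248 without the block and an SE of 0.12 and a limma adjusted p of 0.000103 with it. With the block it rose by 1.41 (SE 0.20, limma adjusted p = 0.00172) in KO1, by 1.04 (SE 0.20, limma adjusted p = 0.00662) in KO2 and by 0.67 (SE 0.20, limma adjusted p = 0.0327) in the control line. Without it the limma adjusted p-values were 0.262, 0.444 and 0.614. Leaving out single libraries ended the unblocked call over the 3 lines in 8 of 12 cases (limma adjusted p up to 0.0771). With the block, the control call was lost in 4, down to 0.21 (limma adjusted p = 0.492) without either R2 control library, and the KO2 call in 2, without either KO2 vehicle library (up to 0.0697). The lower MAFK of the KO lines in vehicle, at 0.390 to 0.787 of the control level, was not called in either fit. In KO1 the difference with the block was -0.70 (SE 0.24, limma adjusted p = 0.127). With unnumbered control libraries treated as R1 it was -0.87 (SE 0.21, limma adjusted p = 0.0336).

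**Figure D2:**
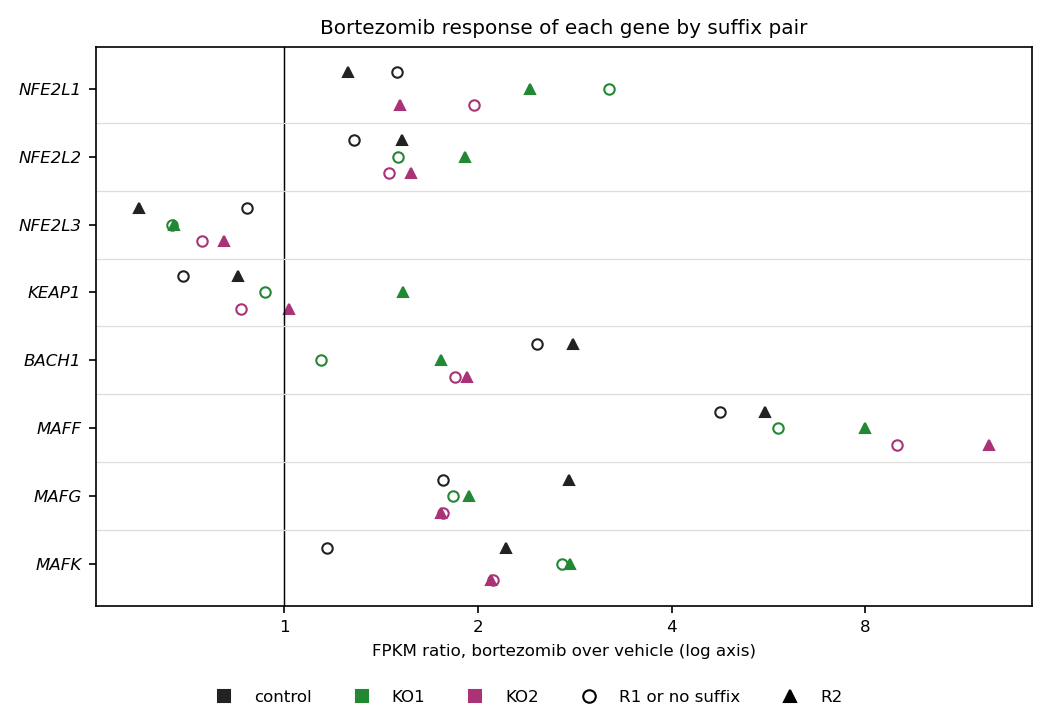
FPKM ratio of bortezomib over vehicle (log axis) for each gene in the 6 pairs of libraries with the same line and suffix; colours give the line, circles the R1 or unnumbered pair and triangles the R2 pair. MAFF ratios run from 4.76 to 12.5, NFE2L3 ratios all lie under 1, and KEAP1 ratios lie on both sides of 1.

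Counted over the members without a model, 7 of 8 moved the same way in 6 of 6 pairs, 6 upward and NFE2L3 downward, where 48.5% of all tested genes did so. The 6 bortezomib and 6 vehicle libraries did not overlap for 2 members, MAFF and MAFG, where 9.75% of tested genes did not overlap. For bortezomib over the 3 lines limma called 3 of 8 members without the block, MAFF, MAFG and MAFK, all higher, where it called 11.6% of tested genes. With the block it called 7 of 8, 6 higher and 1 lower, where it called 54.9%. Most tested genes were called in that fit, so a member called in that fit is not set apart by the call. The median log2 change of the 8 members was 0.79 and that of all tested genes -0.01.

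By line without the block, 1 of 8 members was called in each, in every case MAFF, where limma called 0.467% of tested genes for control cells, 0.238% in KO1 and 0.320% in KO2. With the block 5 of 8 were called in the control line (NFE2L2, BACH1, MAFF, MAFG and MAFK), where 32.4% of tested genes were. In KO1 6 of 8 were called (NFE2L1, NFE2L2, MAFF, MAFG and MAFK higher, NFE2L3 lower) beside 27.7%, and in KO2 6 of 8 (all but NFE2L3 and KEAP1, all higher) beside 27.0%. The calls shared by all 3 lines with the block were NFE2L2, MAFF, MAFG and MAFK. The share of all tested genes called in all 3 lines was not counted, so these members are not set apart by it. Except for MAFF, some of these calls were lost with single libraries left out, as given above.

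Between KO and control lines few members were called. Without the block none was called in KO1 or KO2 in vehicle, where 0.213% and 0.230% of tested genes were, and 1 member in each had an unadjusted p under 0.05. The mean of the KO lines against the control line in bortezomib also gave 0 members in limma, where 0.164% of tested genes were called, and 2 members had an unadjusted p under 0.05. The share of all tested genes at that unadjusted cutoff was not taken, so these members are not set apart by it. voom on the recovered reads called 1 member in KO1, where it called 15 of 12194 tested genes higher and 19 lower. It called 0 members in KO2, beside 13 higher and 8 lower, and 0 in bortezomib, beside 7 and 12. With the block, KO1 in vehicle gave 1 member, NFE2L1, beside 5.95% of tested genes, and KO2 gave 2, NFE2L1 and NFE2L3, both lower, beside 4.91%. In bortezomib the block gave 2 members, NFE2L1 lower and MAFF higher, beside 7.66%. Without a model, the 4 KO and 2 control libraries did not overlap for NFE2L1 and MAFK in vehicle, where 9.03% of tested genes did not overlap, and for NFE2L1 and MAFF in bortezomib, where 14.6% did not. The comparisons in each treatment share the same 2 control libraries.

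KO1 against KO2 in vehicle, a comparison added after the data were seen, gave 0 members without the block, beside 0.0656% of tested genes. No member then had an unadjusted p under 0.05, and voom called 0 members, beside 0 tested genes higher and 3 lower. With the block it gave 2 of 8, NFE2L1 lower and NFE2L3 higher in KO1, beside 3.00%. The interaction of knockout and bortezomib called 0 members in either fit, and 0% of all tested genes. At an unadjusted p under 0.05 it gave 0 members without the block and 3 with it, and voom called 0. The share of all tested genes at that unadjusted cutoff was not taken, so the 3 are not read as a result. The NFE2L1 interaction was 0.63, with an SE of 0.64 and a limma adjusted p of 1 without the block and an SE of 0.20 and a limma adjusted p of 0.280 with it.

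**Figure D3:**
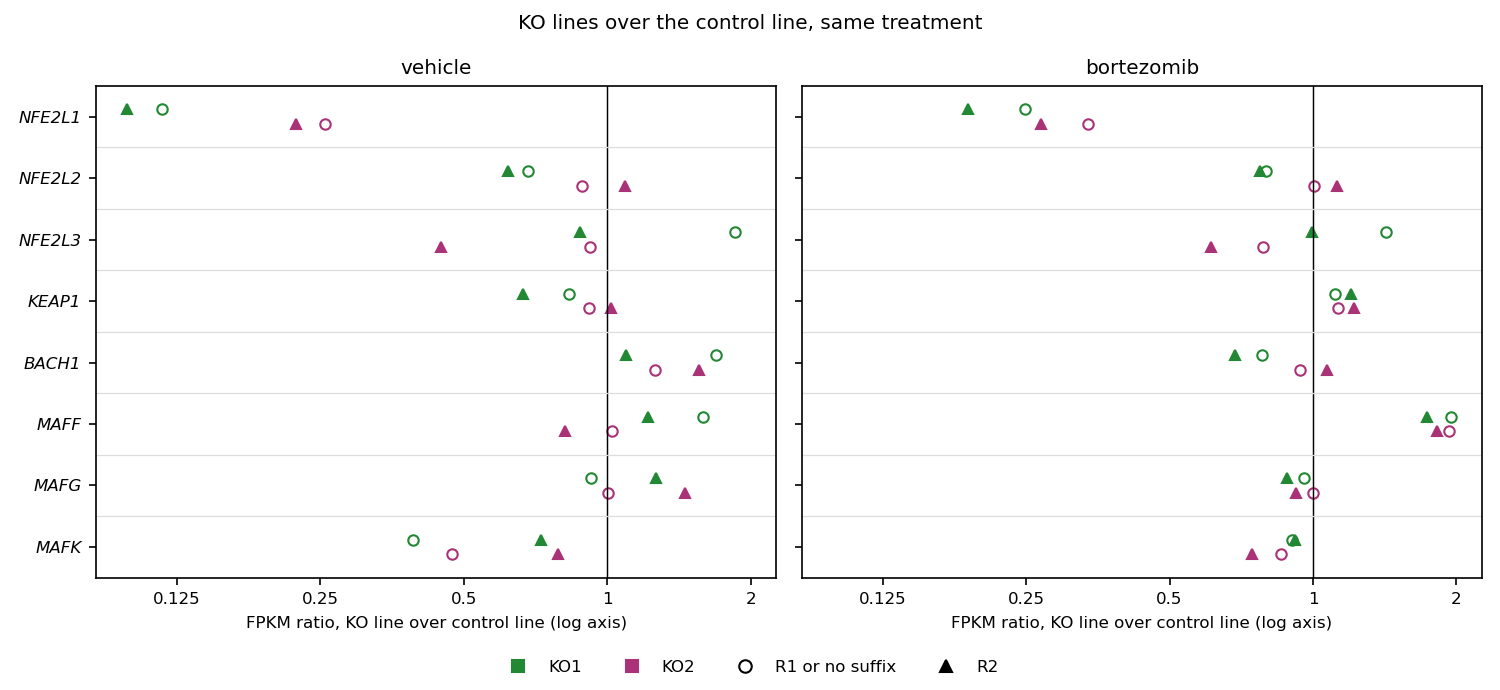
FPKM ratio of each KO line over the control line (log axis) in vehicle and in bortezomib for the 8 genes; circles set R1 beside the unnumbered control library and triangles set R2 beside R2. NFE2L1 ratios all lie at or under 0.337, MAFK ratios in vehicle at 0.390 to 0.787, and MAFF ratios in bortezomib at 1.74 to 1.95.

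FPKM is per length, so levels within a library can be ordered, but only roughly. The length was that of all annotated exons of a gene, which the expressed transcripts need not all include. NFE2L1 was the highest of the 8 in all 4 control libraries, ahead of MAFK. In the KO lines the top place went to MAFG or MAFK in most libraries, with KEAP1 first in the first vehicle library of KO2 and NFE2L1 first in its R2 vehicle library. MAFF was the lowest of the 8 in all 6 vehicle libraries. In bortezomib BACH1 was the lowest in 5 libraries, and MAFF in the first control library. Means over all 12 libraries ran from 62.3 FPKM for NFE2L1 to 3.72 FPKM for BACH1, with MAFK at 39.1 FPKM and MAFG at 36.3 FPKM close together and KEAP1 at 16.4, NFE2L3 at 13.7 and NFE2L2 at 12.2 FPKM overlapping over libraries.

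The small MAF genes were also summed, since their proteins can stand in for each other as partners. Their summed level was 38.3 to 63.6 FPKM in vehicle and 89.3 to 135 FPKM in bortezomib, with no overlap. MAFF and MAFG did not overlap singly either, while MAFK did, so the sum is not a separate result. The pool grew 1.44 times in the first control pair and 2.03 to 2.49 times in the other 5 pairs. MAFG and MAFK made up nearly all of it, and MAFF took 1.12% to 4.09% of the pool in vehicle and 3.25% to 10.2% in bortezomib. The MAFF share grew by 1.81 and 3.59 percentage points in the control pairs and by 4.23 to 7.79 points in the KO pairs. MAFK took 50.4% to 62.3% in the control line and 40.4% to 51.7% in the KO lines.

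**Figure D4:**
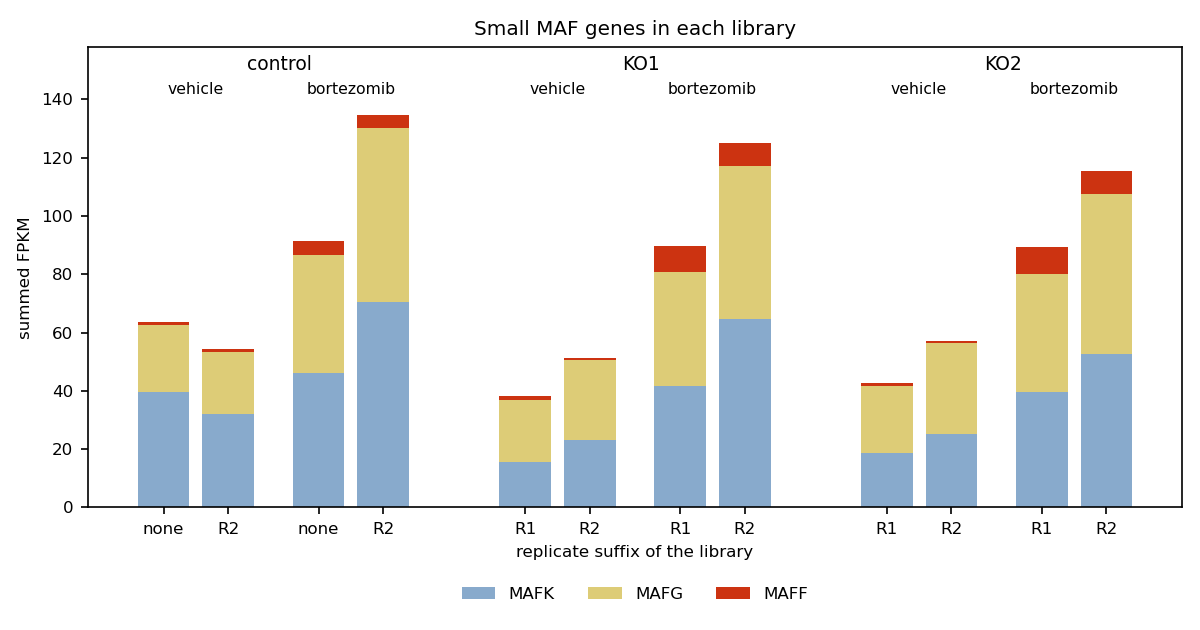
Summed FPKM of MAFK, MAFG and MAFF (stacked bars from 0) in each of the 12 libraries, grouped by line, treatment and replicate suffix. The sum is 38.3 to 63.6 in vehicle and 89.3 to 135 in bortezomib, and MAFF is the thin top segment, thicker in bortezomib and thickest in the KO lines.

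The 3 CNC activators NFE2L1, NFE2L2 and NFE2L3 summed to 97.7 to 216 FPKM in the control line, 36.7 to 59.9 FPKM in KO1 and 41.0 to 72.9 FPKM in KO2. NFE2L1 was 74.5% to 87.6% of that sum in the control line, 23.0% to 59.7% in KO1 and 45.4% to 69.7% in KO2. In the KO lines this counts remaining transcript of the targeted gene, which may not encode an intact protein. The fall of NFE2L1 itself lowers the sum and raises the shares of the other genes. NFE2L3 reached 54.2% of the sum in the R2 vehicle library of KO1. In all 4 control libraries the sum of activators exceeded that of the small MAF genes.

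Each member also differed between the suffixes. NFE2L1 and NFE2L3 were higher in R2 in 6 of 6 groups, by 1.32 to 2.08 times and 1.29 to 2.73 times. NFE2L2, KEAP1, BACH1 and MAFF were lower in R2 in 6 of 6 groups, with median ratios of 0.562, 0.583, 0.604 and 0.810. MAFG and MAFK were higher in R2 in 5 of 6 groups, the vehicle control group being the exception for both. The part of the mitochondrial share in these ratios was not tested.

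After subtracting the mean of the R2 libraries from those 6 and of the first libraries from theirs, Pearson's r of log2(FPKM + 1) over the 12 libraries described which members varied together. The values share libraries, treatment and depth, so they are given with no test. MAFF and MAFG had r = 0.908, BACH1 and MAFG 0.896, and MAFG and MAFK 0.826. NFE2L2 and NFE2L3 had r = -0.765, and NFE2L1 and NFE2L3 -0.229. KEAP1 had no r beyond 0.260 in size with any member.

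By the same measure, the genes most like MAFF among all tested genes were CD55 (0.992), a complement regulator, BEX2 (0.989), and ATF3 (0.988), a stress-induced transcription factor. Those most like MAFG were GOSR2, QTRTD1 and DPF2, at 0.986 or more, and those most like MAFK were NKD2, DUSP1 and ATHL1, at 0.955 or more. NFE2L1 was closest to LAYN, NXN and ACVR2A (0.961 to 0.972), and NFE2L2 to RP11-382A20.3, TDP2 and ANKRD13C (0.982 to 0.986). BACH1 was closest to ANKRD17, ICE1 and CAMSAP2 (0.966 to 0.979), and KEAP1 to AURKAIP1, FOPNL and ACTL6A (0.940 to 0.957).

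A list of 20 antioxidant response and CNC-MAF target genes, all of which passed the filter, held calls in both directions with bortezomib. With the block limma called 9 higher and 6 lower of the 20 over the 3 lines, beside 54.9% of all tested genes, of which 3290 were higher and 3400 lower. Without it limma called 1 higher and 0 lower, beside 11.6%. The median log2 change was 0.11 for the list and -0.01 for all tested genes. OSGIN1, an oxidative stress induced growth inhibitor, was 10.6 to 22.5 FPKM in vehicle and 32.9 to 53.0 FPKM in bortezomib, a rise of 1.34 (limma adjusted p = 0.00371 without the block and 1.26e-05 with it). ME1, the NADPH-producing malic enzyme, was 11.7 to 37.2 FPKM in vehicle and 30.9 to 99.3 FPKM in bortezomib, a rise of 1.25 (limma adjusted p = 6.94e-06 with the block, 0.0719 without). ABCC2, a drug and conjugate export pump, was 93.2 to 288 FPKM in vehicle and 44.1 to 172 FPKM in bortezomib and fell by 0.85 (limma adjusted p = 0.000129 with the block, 0.300 without).

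By line with the block, the list of 20 targets gave 4 higher and 5 lower in control cells. The counts were 6 and 1 in KO1, and 3 and 3 in KO2. Limma called 32.4%, 27.7% and 27.0% of all tested genes in these lines, so the list was near the background in KO1 and KO2. Whether the control cells differed from the background was not tested. Without the block 0 of the 20 were called in each line, beside 0.467%, 0.238% and 0.320% of tested genes. In KO1 against the control line in vehicle limma called 2 of the 20 with the block, beside 5.95% of tested genes, both lower: HMOX1, heme oxygenase, by -1.44 (limma adjusted p = 0.0111), and AKR1C1, an aldo-keto reductase, by -1.46 (limma adjusted p = 0.00827). KO2 against the control line gave 0 of 20, beside 4.91%. KO1 against KO2 gave 4 lower of 20 with the block, beside 3.00%: AKR1C1, AKR1B10, HMOX1 and FTL. In bortezomib the KO mean against the control line gave 3 of 20, beside 7.66%, with AKR1B10 and TXNRD1 higher and HMOX1 lower, by -0.90 (limma adjusted p = 0.0410). These genes were named after their values were seen, and without the block none of them was called between lines.

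Of 10 genes for turnover and processing of CNC factors, all tested, limma called 5 higher and 1 lower with the block over the 3 lines, near the 54.9% of all tested genes, and 0 without it. The median log2 change was 0.25 for the list. FBXO22, a ubiquitin ligase subunit that acts on BACH1, was 4.07 to 7.22 FPKM in vehicle and 4.62 to 11.3 FPKM in bortezomib and rose by 0.48 (limma adjusted p = 0.00102 with the block). VCP, the ATPase that extracts NFE2L1 from the endoplasmic reticulum, rose by 0.36 (limma adjusted p = 0.00564 with the block). RBX1, a RING subunit of cullin ligases, fell by 0.50 (limma adjusted p = 0.0122 with the block). Between KO and control lines 0 of the 10 were called in either fit. The CNC genes NFE2 and BACH2 and the large MAF genes MAF, MAFA and NRL did not reach a mean of 1 FPKM, and their highest value in a library was 0.608 FPKM, for NRL.

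Shared reads bear on some members, since whether counting used strand is not given in the sources used here. MAFK shares 809 exonic bases with TMEM184A on the opposite strand (253 to 2392 reads), and MAFG shares 105 bases with SIRT7 on its own strand (547 to 2183 reads) and 224 with RP11-498C9.12 on the other (18 to 113 reads). NFE2L2 shares 54 bases with AGPS on the opposite strand (597 to 3302 reads) and 1054 with AC074286.1 on its own (12 to 43 reads). NFE2L1 shares 192 bases with an antisense gene that had 0 reads, and the partners of BACH1 had 9 reads at most. NFE2L3, KEAP1 and MAFF share no exonic base with another gene in GENCODE 29. The values of MAFK, MAFG and NFE2L2 are uncertain to that extent.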

How the data were processed

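Gene expression was measured by RNA sequencing in 12 libraries. The authors deposited FPKM for 58676 genes. Per the submitters' processing notes, CASAVA, STAR 2.5, HTSeq 0.6.1, DESeq2 and hg19 were used. The deposited positions match GRCh38 instead: all 58676 gene IDs were in GENCODE 29, 95.3% at the same position. Coordinates are therefore given as GRCh38. Annotation release and strand setting are not given in the sources used here. FPKM multiplied by length gave whole reads for 100.0% of values (tolerance 0.01), which gave the depth.

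Groups were taken from the labels. limma 3.58.1 (R 4.3.3; eBayes with trend) was fitted to log2(FPKM + 1) with 1 mean per group over all 12 libraries, for the 12194 genes (20.8%) that averaged 1 FPKM or more. Genes under a Benjamini-Hochberg adjusted p of 0.05 were called. The fit had 6 residual degrees of freedom, and 4 with the title suffix as a block (R1, R2 and no suffix). The pairing rests on that suffix: differences between the 2 libraries of a group correlated at 0.696 to 0.890 (median 0.811) over 15 pairs of groups. KO to control contrasts are then tied mainly through the R2 libraries, and an alternative block treated unnumbered libraries as R1. Other alternatives were a pseudocount of 0.1, no filter, rescaling to a common sum, quantile normalization, leaving out mitochondrial genes, voom on recovered reads, only the groups compared, and leaving out each library. Each script was tested on simulated data.

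The 8 members and the gene lists were chosen with earlier results of these data known. Each member's levels are named, and its fold change where a fit called it, always for NFE2L1. From each list the 3 genes with the largest bortezomib change were named. The 3 genes most correlated with each member were named too; a few genes are not reported here. Fold changes called only with the alternative block, and counts without a model, were added after seeing the data.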

Additional observations from a re-analysis of the deposited data

How the results depend on the processing

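Counts of called members depended mainly on the replicate block. With the block the counts were 7 (bortezomib over the 3 lines), 5 (control line), 6 (KO1), 6 (KO2), 1 (KO1 against control, vehicle), 2 (KO2 against control, vehicle), 2 (KO mean against control, bortezomib) and 2 (KO1 against KO2), beside 3, 1, 1, 1, 0, 0, 0 and 0 without it. With unnumbered libraries treated as R1 they were 7, 5, 5, 6, 3, 1, 2 and 1, the 3 being NFE2L1, NFE2L2 and MAFK. For KO1 against control that fit called 473 tested genes higher and 498 lower, beside 378 and 347 with unnumbered libraries on their own level. For the KO mean in bortezomib it called 811 and 739, beside 476 and 458. For KO1 against KO2 it called 141 and 162, beside 172 and 194. The share of all tested genes is not given for most settings below. Without the block, rescaling to a common sum gave 0 for the control line, 0 for KO1 and 1 for KO1 against control, voom gave 1 for KO1 against control, and fitting only the groups compared gave 0 for KO1. With the block and no filter the counts were 3 (control line), 1 (KO2 against control), 1 (KO mean, bortezomib) and 0 (KO1 against KO2). For KO1 against control the block with quantile normalization gave 2 and with voom 2, and for the KO mean in bortezomib a pseudocount of 0.1 gave 1 and quantile normalization 1. The cause of these moves was not tested.

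Leaving out each library in turn without the block gave 1 to 3 members over the 3 lines, 0 in the control line, 0 to 1 in KO1 and 0 to 1 in KO2. With the block it gave 3 to 6 in the control line, 3 to 6 in KO1, 1 to 6 in KO2, 0 to 2 in KO2 against control, 1 to 2 in the KO mean in bortezomib and 0 to 2 in KO1 against KO2. MAFF kept its bortezomib call over the 3 lines in 19 of 19 alternatives without the block, in KO2 in 16, in KO1 in 13 and in the control line in 6. In single genes 3 values reversed, all without the block. NFE2L1 in the control line ran from -0.072 (without the first vehicle library) to 0.97, NFE2L2 there from -0.037 (without the R2 vehicle library) to 0.93, and NFE2L3 in KO2 against control from -1.28 to 0.079 (without the R2 vehicle control). Scalings moved the median of all tested genes by under 0.1. With 2 libraries a group, small differences are out of reach.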
